A study of Mus musculus with 60 samples.

Results

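Cell-surface peptidases cut peptides, cytokines and adhesion proteins outside the cell, and 8 of their genes are described here across 60 single tumor cells. The genes were taken by name from a fixed list of symbols, Mme, Anpep, Dpp4, Enpep, Ece1, Adam10, Adam17 and Mmp14, out of 47729 mouse genes in the count table, and all 8 had a row there. Counts were found for 6 of them, and Dpp4 and Enpep had none in any cell. The list was drawn up with earlier results of these data known. The cells came from PyMT-Bo1, a single mouse mammary tumor line of C57BL6 background that carries luciferase, H2B-mApple and Thy1.1 transgenes in every group. They were stained with the membrane dye DiD, which each division dilutes, and injected into the left heart ventricle of wild-type female C57BL6 mice aged 8 to 10 weeks. After 11 days the femurs and tibias of 5 mice were pooled, and tumor cells enriched on Thy1.1 and gated as CD45- and DAPI- were sorted 1 per well as DiD+ (high dye, 32 cells) or DiD- (low dye, 28 cells). The comparison asks how the RNA of cells that kept the dye differs from that of cells that diluted it. No label ties a cell to a mouse, hence each group counts as 1 sample. No test between the groups was run, and no difference below has a replicate check within these 60 cells. The paper reports higher Mme in DiD+ cells by qRT-PCR of other sorted cells from bone and lung, which are not part of these data.

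Neprilysin (Mme, also CD10), the aminopeptidases N and A (Anpep, or CD13, and Enpep), dipeptidyl peptidase 4 (Dpp4, or CD26) and the endothelin-converting enzyme (Ece1) have their catalytic side facing out of the cell and trim or activate small peptides such as enkephalins, angiotensins, endothelins and chemokines. Adam10 and Adam17 are sheddases, which cut the extracellular part from growth factor precursors, cytokines and Notch receptors. Mmp14 is a membrane-anchored collagenase that also activates secreted pro-Mmp2. Stromal, epithelial and blood cells of bone and mammary gland use several of these enzymes, and CD10 is a long-used surface marker of mammary myoepithelial cells and of stromal cells.

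On GRCm38 (GENCODE annotation), Mme lies on chromosome 3 from 63241537 to 63386030 and Enpep on the same chromosome from 129269175 to 129332720. Anpep spans 79821803 to 79861059 on chromosome 7, Dpp4 62330073 to 62412231 on chromosome 2 and Ece1 137862237 to 137965229 on chromosome 4. Adam10 spans 70678997 to 70780229 on chromosome 9, Adam17 21323509 to 21373632 on chromosome 12 and Mmp14 54431612 to 54445364 on chromosome 14. All 8 are protein-coding genes, and the counts sum the exons of each gene's transcripts. Exons of Adam17 share 311 bases, 4.35% of its exon length, with Iah1 on the other strand, so a part of the counts of either gene could belong to the other.

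The promoters of the 8 genes differ in their content of CpG, the dinucleotide CG, which reads the same on both strands. The RefSeq promoter table (GRCm38.p6) has an entry for all 8 genes. Over the 250 bases before the start, Adam10 has 29 CpG (as many or more in 6.78% of all 32851 promoter windows of that length), Adam17 and Anpep have 23 each (13.3%), Ece1 has 22, 23, 14 and 5 at its 4 annotated starts (14.8%, 13.3%, 29.4% and 55.6%) and Mmp14 has 10 (37.8%). Dpp4 has 4 (62.2%) and Enpep 6 (50.4%), around the median of 6 over all windows. Mme has 3 annotated starts in the table, the first with 2 CpG (81.2%) and the others with 27 each (8.56%), and counts per gene do not tell transcripts from these starts apart. The 120 bases before the start are printed for the CpG-poor and a CpG-rich start of Mme, for the pair of genes without a count, for Adam10 and for Mmp14, which had a count in every cell. Each is written in the direction of its gene, in lower case with CpG in capitals.
Mme, start 1 (chr3:63295091-63295210, + strand): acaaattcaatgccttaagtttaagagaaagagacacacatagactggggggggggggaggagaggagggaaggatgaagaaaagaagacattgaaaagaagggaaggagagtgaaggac
Mme, start 3 (chr3:63295975-63296094, + strand): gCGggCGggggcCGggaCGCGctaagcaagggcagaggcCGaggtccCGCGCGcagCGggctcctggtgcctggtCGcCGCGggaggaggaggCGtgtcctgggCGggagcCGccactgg
Dpp4 (chr2:62412232-62412351, - strand): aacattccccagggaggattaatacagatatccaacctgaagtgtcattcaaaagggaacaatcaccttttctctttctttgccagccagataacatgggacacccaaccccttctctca
Enpep (chr3:129332750-129332869, - strand): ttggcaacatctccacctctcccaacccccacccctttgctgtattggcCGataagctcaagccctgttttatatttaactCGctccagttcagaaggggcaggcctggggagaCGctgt
Adam10 (chr9:70678862-70678981, + strand): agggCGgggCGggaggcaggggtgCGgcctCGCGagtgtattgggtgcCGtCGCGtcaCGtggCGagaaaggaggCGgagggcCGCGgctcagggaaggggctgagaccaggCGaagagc
Mmp14 (chr14:54431478-54431597, + strand): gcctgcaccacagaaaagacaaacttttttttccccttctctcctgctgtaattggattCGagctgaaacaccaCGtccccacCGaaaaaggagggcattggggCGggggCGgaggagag
The window of the first Mme start and that of Dpp4 hold 0 CpG, and that of the third Mme start holds 16. These letters describe the windows only, and nothing is read from them about methylation or use of a start, which were not measured.

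The depth of a DiD+ cell lay between 2276789 and 7794219 counts and that of a DiD- cell between 2624405 and 6199108, so that 1 count was worth 0.215 counts per 1000000 (CPM) at the median depth of DiD+ cells and 0.225 CPM at that of DiD- cells. The labelled cell type was checked on 9 epithelial markers. Krt8 had at least 10 counts in all 60 cells and Krt18 in 29 DiD+ and 28 DiD- cells, whereas Epcam, Krt7, Krt19, Cldn3 and Cldn4 had 0 counts in every cell and Cdh1 had a count in 1 cell. Both keratins were lower in DiD+ cells, with summed levels of 1831 against 3395 CPM for Krt8 and 728 against 1578 CPM for Krt18. Their log2 ratios, formed as described below, were -0.89 and -1.115. Transgene counts were found in 31 DiD+ cells and in all 28 DiD- cells, the exception being DiD+ cell 30 (cells are called by the number in their labels). Of 10 lists of markers of bone and blood cells, 4 had at least 50% of their genes present (10 counts or more) in some well. These were macrophage or monocyte markers in 6 DiD+ wells (19, 21, 24, 30, 37 and 88) and 1 DiD- well (84), erythroid markers in 3 wells of each group, neutrophil markers in well 84 and megakaryocyte or platelet markers in DiD+ well 29, together 7 DiD+ and 3 DiD- wells. Other wells held at most 6 of the 13 macrophage or monocyte markers. The neutrophil, lymphoid (B or plasma cell and T or NK cell), endothelial, dendritic cell and osteoblast or osteoclast lists had at most 2 genes present in any other well. Ratios of the members, and of the genes named from the related lists where a call depends on it, are also given without those 10.

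A group level is the summed count of its cells divided by their summed total, in CPM, with an exact 95% Poisson interval, and a share of cells has an exact 95% binomial (Clopper-Pearson) interval. Reads without molecular identifiers are not independent molecules, so these intervals cover counting error only, not the spread among cells or mice. Levels of DiD+ were set over those of DiD- on the log2 scale after 1 CPM was added to both, and a gene was called at a fold of 2, a log2 ratio of at least 1 or at most -1. Of 12432 genes that reached 1 CPM in either group, 12.1% were called higher and 4.86% called lower in DiD+ cells. Among the 6 members that passed this minimum, Mme and Anpep were called higher and 0 lower. The paper had already reported Mme as higher in DiD+ cells from these same cells. The call of Mme is therefore no independent finding, and the share of members called is not a fair comparison with that of all genes. At a minimum of 10 CPM, which Anpep did not reach, the background was 6.38% higher and 3.18% lower, and over genes with any count 7.99% and 3.21%. The median log2 ratio was 0.28 for the 6 members and 0.04 for all genes (quartiles -0.29 and 0.46). Replacing the ratio of Anpep by the lower end of its counting interval (1.76) leaves the members' median as it is, since Anpep has the highest ratio either way.

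**Figure D1:**
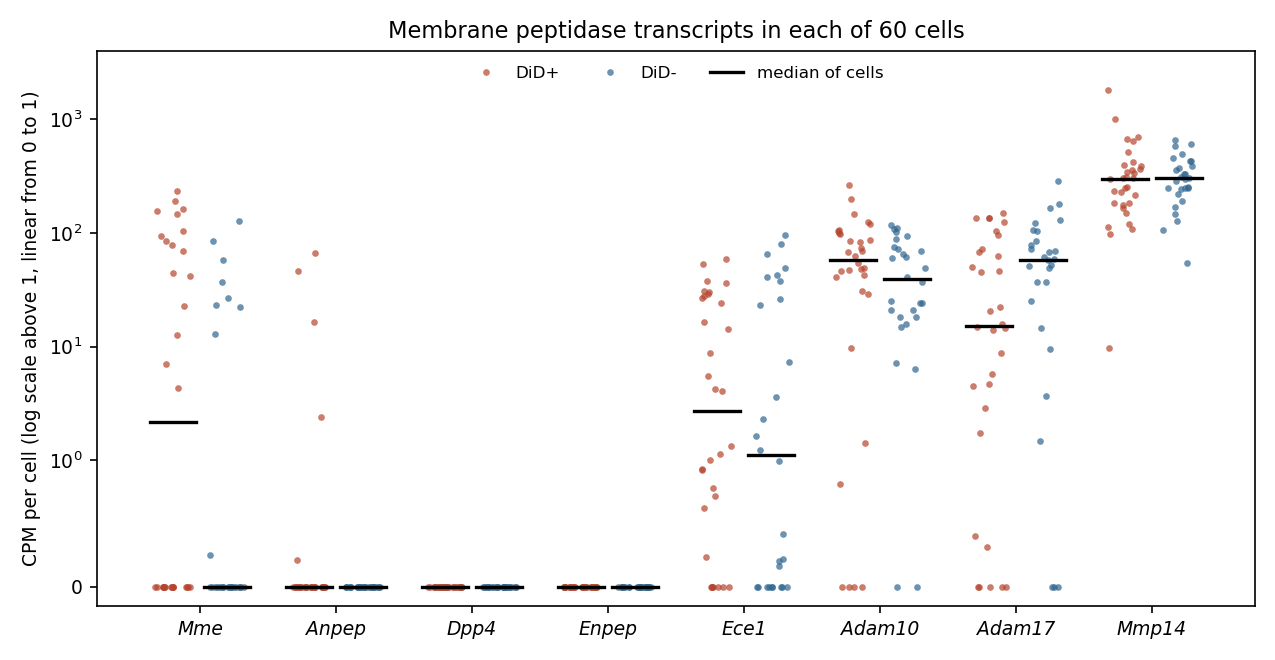
Level of each gene in each cell, in CPM on a scale that is logarithmic above 1 and linear from 0 to 1, with DiD+ cells in red and DiD- cells in blue and a bar at the median of the cells. Mme is at 0 in 16 of 32 DiD+ and 19 of 28 DiD- cells and otherwise reaches 235.5 CPM, Dpp4 and Enpep are at 0 in every cell, and Mmp14 lies at medians of 301 CPM in both groups.

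Mme, the endopeptidase that degrades enkephalins, substance P and natriuretic peptides, had the higher level in DiD+ cells. Per DiD+ cell it ranged from 0 to 235.5 CPM with a median of 2.18 CPM, and per DiD- cell from 0 to 126.5 CPM with a median of 0 CPM. Detection was close to all-or-none. In 16 of 32 DiD+ cells (50%, interval 31.9% to 68.1%) Mme had at least 10 counts, 16 in cell 31 at the lowest and 979 in cell 69 at the highest, and in the other 16 it had none. Of 28 DiD- cells, 9 (32.1%, interval 15.9% to 52.4%) had a count, from 1 in cell 20 to 614 in cell 34, and 8 had at least 10. The difference in the share of cells was not tested. The ranges of the groups overlap, and among cells with a count the median was 81.9 CPM in DiD+ and 26.9 CPM in DiD-.

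Summed over cells, Mme was at 45.1 CPM in DiD+ (6585 counts, 44 to 46.2) and 13.8 CPM in DiD- (1649 counts, 13.1 to 14.5). This is a ratio of 3.27 and a log2 ratio of 1.64 (counting interval 1.54 to 1.74), above that of 95.05% of all genes with at least 1 CPM. The DiD- level depended more on single cells than the DiD+ level did. Cell 34 held 37.2% of the DiD- counts, and without it the log2 ratio was 2.20, the highest with any 1 cell left out. Cell 69 held 14.9% of the DiD+ counts, and without it the log2 ratio was 1.45, the lowest. Cell 41 had 946 counts of Mme, 1832 of Krt8 and 2 of Krt18, and without it the log2 ratio was 1.47. DiD+ cell 68 had 345 counts of Mme, 1215 of Krt8 and 0 of Krt18, and without it the log2 ratio was 1.599. In the labels the cell numbers fall into a run from 17 to 46 and a run from 63 to 92, whose meaning is not given. The level was 45.3 against 14.8 CPM in the first run (log2 ratio 1.55) and 44.8 against 12.9 CPM in the second (1.71).

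The 7 wells listed above for macrophage markers held few of the Mme counts. Of the 6 DiD+ wells, 1 (well 19) had Mme, with 585 counts or 8.88% of the group's, and the DiD- well 84 had 159 counts, 9.64% of its group's. Without these 7 wells Mme was at 51.3 CPM in 26 DiD+ cells and 12.8 CPM in 27 DiD- cells (log2 ratio 1.93). Without all 10 wells with host markers it was at 47.4 and 13.1 CPM (1.78), with at least 10 counts in 14 of 25 DiD+ and 6 of 25 DiD- cells. The ratio was thus at least as large without those wells. However, DiD+ cell 69, which had the most Mme counts of any cell (979), was not among them. It had 6 of the 13 macrophage or monocyte markers present and 53 counts of C1qa, and it was kept in these ratios. Without cell 69 alone the log2 ratio was 1.45. A ratio without cell 69 and those wells together was not formed, so the part of macrophage RNA in its Mme counts was not tested.

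Among DiD+ cells Mme ran with the sum of the stromal markers and against the sums of the cell cycle genes. Across the 32 DiD+ cells Mme had a Spearman rho of 0.47 with the summed CPM of 11 mesenchymal stromal markers, and across the 28 DiD- cells a rho of 0.05. This was not particular to Mme, since Anpep had a rho of 0.43 and Mmp14 0.31 with that sum among DiD+ cells. Ece1, Adam10 and Adam17 had 0.06, 0.01 and -0.06. With the summed epithelial markers Mme had a rho of -0.14 among DiD+ and -0.45 among DiD- cells. Each point is a cell, and values of a cell share its library and depth. The summed stromal level had similar medians, 160 CPM in DiD+ (range 3.54 to 3848) and 157 CPM in DiD- (0.381 to 497), with a median of 2.5 and 3 markers present and at most 5 of 11, in DiD+ cell 31. Of the list, Lum, Adipoq and Ebf3 were at 0 in every cell and Lepr had counts in 1 DiD- cell, whereas Cxcl12 and Kitl had at least 10 counts in 25 DiD+ cells each. Col3a1, a fibrillar collagen gene, was at 197 against 28.3 CPM, with a count in 13 cells of each group. Its log2 ratio of 2.76 was the highest of the list. The others were 2.19 for Dcn, 1.49 for Col1a1, 0.77 for Kitl, 0.48 for Pdgfra and 0.09 for Col1a2. Cxcl12 (-0.25) and Lepr (-1.085) went the other way. The part of stromal RNA in the Mme difference was not tested.

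The median summed CPM of 43 S phase genes was 1734 in DiD+ and 4852 in DiD- cells, and that of 52 G2/M genes 1803 and 6864. Among DiD+ cells Mme had a rho of -0.34 with the S phase sum and -0.46 with the G2/M sum, so that cells with higher Mme had lower cell cycle sums. Among DiD- cells these values were 0.05 and 0.26. With the total count of a cell Mme had a rho of -0.01 among DiD+ and -0.07 among DiD- cells. The part of cell cycle state in the Mme difference was not tested.

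**Figure D2:**
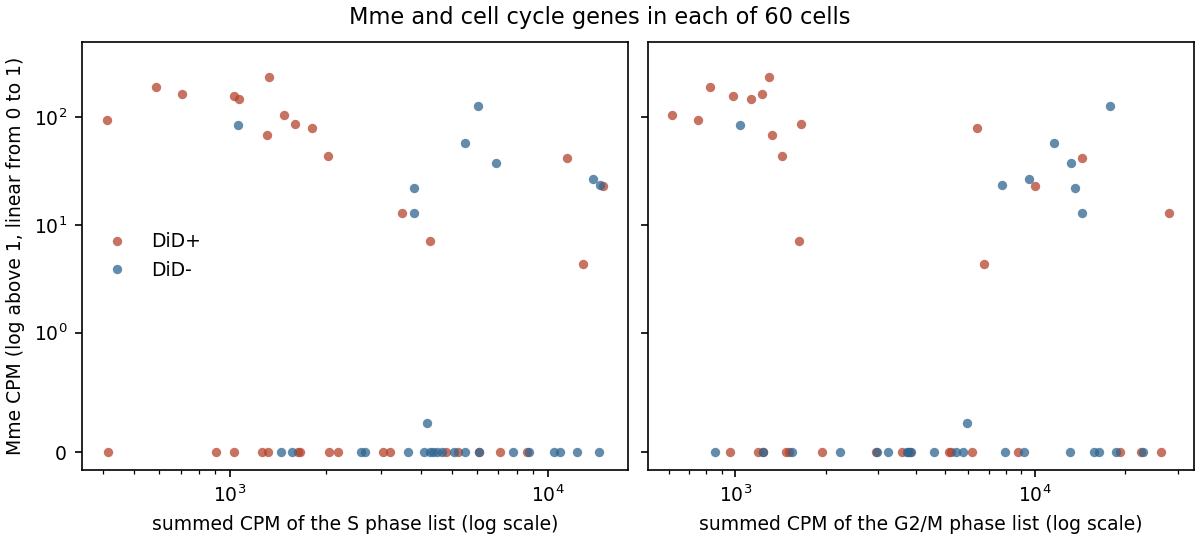
Mme in CPM (vertical, logarithmic above 1 and linear below) against the summed CPM of the S phase list (left) and the G2/M list (right) in each of 60 cells, both sums on log scales, with DiD+ in red and DiD- in blue. DiD+ cells with high Mme sit mostly at low cell cycle sums (rho -0.34 and -0.46), while DiD- cells with Mme lie mainly at middle to high sums (rho 0.05 and 0.26).

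Ece1, the neprilysin relative that cuts big endothelin to active endothelin, was detected in more cells than Mme, in some of them with fewer than 10 counts. It ranged from 0 to 59.1 CPM per DiD+ cell (median 2.70) and from 0 to 96.4 CPM per DiD- cell (median 1.11), so the groups overlapped. A count was present in 25 of 32 DiD+ cells (78.1%, interval 60.03% to 90.7%) and 19 of 28 DiD- cells (67.9%, 47.6% to 84.1%), but at least 10 counts in only 16 and 12. The summed level was 13.1 CPM in DiD+ against 15.8 CPM in DiD-, a log2 ratio of -0.26 (-0.38 to -0.13) that was -0.00 without DiD- cell 34 and -0.03 without the wells with host markers. It was -0.94 among cells 17 to 46 (11.01 and 22.1 CPM) and 0.56 among cells 63 to 92 (15.96 and 10.5 CPM). The direction of Ece1 therefore did not hold within both runs. Of the relatives in the same peptidase family, Mmel1 and Ecel1 had 0 counts in every cell, and Ece2 was at 26.8 and 35.96 CPM (log2 ratio -0.41, or -0.82 without the wells with host markers).

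Anpep, aminopeptidase N, which removes single residues from the amino end of peptides, had counts in DiD+ cells alone. These were 185 counts in cell 70, 152 in cell 31, 53 in cell 76, 12 in cell 41 and 1 in cell 21, and 0 in each of the other 27 DiD+ and all 28 DiD- cells. The share of DiD+ cells was 15.6% (interval 5.28% to 32.8%), and 0 of 28 DiD- cells allows a share of up to 12.3%. The difference in shares was not tested. The level was 2.76 CPM in DiD+ (403 counts, 2.496 to 3.04), 109.9-fold the 0.0251 CPM that 3 counts over the DiD- group would give. That fold takes the DiD+ level itself and not its lower limit, so it is not a lower bound. With 1 CPM added the log2 ratio was 1.91, and 1.34 without cell 70, which held 45.9% of the counts. Without the wells with host markers it was 2.19. The ratio of so low a gene depends on the value added, and with 10 CPM it was 0.35 and no longer called. Of the 4 cells with at least 10 Anpep counts, 3 (70, 31 and 41) also had at least 10 of Mme, as did 16 of all 32 DiD+ cells. Cell 31 was also the one with most stromal markers. Macrophages of many tissues carry this enzyme, and the 6 DiD+ wells with macrophage markers held 1 Anpep count, in well 21.

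Dpp4, a serine peptidase that clips dipeptides from chemokines such as Cxcl12, and Enpep, which cuts angiotensin, had 0 counts in all 60 cells. By the exact intervals a count of 0 allows up to 0.02525 CPM in DiD+ against 0.0309 CPM in DiD- cells. It also allows a share of up to 10.9% of DiD+ and 12.3% of DiD- cells. No ratio was formed for them. Their peptide substrates were in part present, since Cxcl12 reached 89.5 CPM in DiD+ against 106 CPM in DiD- cells.

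**Figure D3:**
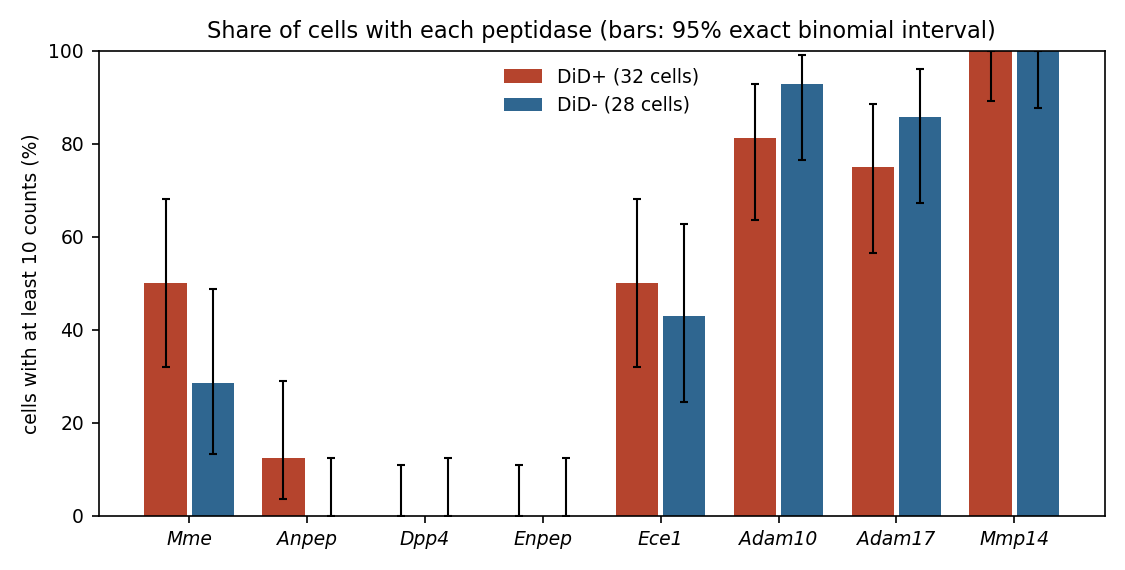
Share of cells with at least 10 counts of each gene, in percent, for 32 DiD+ cells (red) and 28 DiD- cells (blue), with exact 95% binomial intervals as error bars. Mme reaches 50% and 28.6%, Anpep 12.5% and 0%, Adam10 81.2% and 92.9%, Adam17 75% and 85.7%, and Mmp14 100% in both.

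The sheddases were detected in most cells of both groups, and their summed levels lay on opposite sides of a ratio of 1, both within a fold of 2. Adam10, which cleaves Notch receptors, N-cadherin and amyloid precursor protein, ranged from 0 to 264 CPM per DiD+ cell (median 58.4) and from 0 to 117 CPM per DiD- cell (median 39.03). Counts were present in 28 of 32 DiD+ cells (87.5%, interval 71.01% to 96.5%) against 26 of 28 DiD- cells (92.9%, 76.5% to 99.1%). DiD+ cells 23, 31, 43, 75 and 81 lay above all DiD- cells, and the others within the range of DiD- cells. Its summed level was 65.01 CPM in DiD+ (63.7 to 66.3) and 48.8 CPM in DiD- (47.6 to 50.1), a log2 ratio of 0.41 that lay between 0.26 without DiD+ cell 43 and 0.51 without DiD- cell 28. It was 0.57 without the wells with host markers, 0.16 in cells 17 to 46 and 0.69 in cells 63 to 92.

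Adam17, the converting enzyme of tumor necrosis factor and of several EGF receptor ligands, had the lowest ratio of the members. Per cell it ranged from 0 to 151 CPM in DiD+ (median 15.3) and from 0 to 284 CPM in DiD- (median 58.2). A count was present in 27 of 32 DiD+ (84.4%, interval 67.2% to 94.7%) and 25 of 28 DiD- cells (89.3%, 71.8% to 97.7%). Summed levels were 38.6 CPM (37.6 to 39.6) and 70.6 CPM (69.1 to 72.1), which gives -0.85 as log2 ratio, lower than that of all but 6.76% of genes. It was -0.66 without DiD- cell 34, which held 16.3% of the DiD- counts, -0.97 without DiD+ cell 64 and -0.77 without the wells with host markers. Within the runs of cell numbers it was -1.22 (17 to 46) and -0.45 (63 to 92). Iah1, which overlaps Adam17 on the other strand, was at 39.4 and 29.9 CPM, a log2 ratio of 0.39 of the opposite sign. Adam17 also had estimated counts that were not whole numbers in 5 cells, whereas the other 7 genes had whole counts in every cell.

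Mmp14, the membrane collagenase, had a count in every cell and the highest level of the 8 genes. It ranged from 9.66 CPM in cell 19 to 1812 CPM in cell 41 among DiD+ cells and from 54.5 to 653 CPM among DiD- cells, and the medians of both groups were 301 CPM. The DiD+ cells were more spread, with cells 37, 41, 68 and 70 above all DiD- cells and cell 19 below all of them. Summed levels were 358 CPM (355 to 361) and 322 CPM (319 to 326), which gives 0.15 as log2 ratio. Without cell 41, which held 17.2% of the DiD+ counts, it was -0.07, so the direction rests on that cell, and without the wells with host markers it was 0.18. Scaled to spike-ins it was -0.40, where the median of all genes stood at -0.34.

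**Figure D4:**
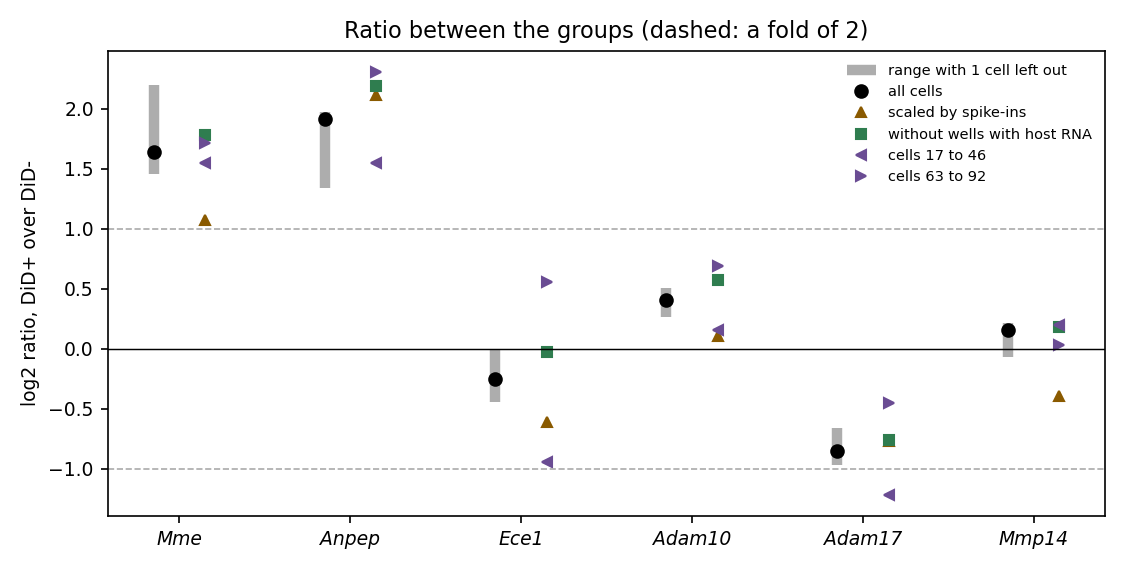
The log2 ratio of DiD+ over DiD- for the 6 genes with counts, from all cells (black points), with 1 cell left out in turn (grey bars give the range), scaled by spike-ins (brown), without wells that hold host markers (green) and within each run of cell numbers (purple), with dashed lines at a fold of 2. Mme and Anpep lie above 1 under each of these, Adam17 lies below 0, and Ece1 and Mmp14 lie on both sides of 0.

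Levels of different genes were compared per kilobase of exon, with all annotated exons of a gene merged. This length was 11542 bases for Mme and 4135 to 7154 bases for the others. The lengths of the transcripts in use were not measured, so the order depends on this choice. In DiD+ cells the order was Mmp14 (60.1 CPM per kb), Adam10 (13.2), Adam17 (5.40), Mme (3.91), Ece1 (2.46) and Anpep (0.667). In DiD- cells it was Mmp14 (54.1), Adam10 (9.94), Adam17 (9.86), Ece1 (2.98) and Mme (1.20). Mmp14 had the highest level per kb of the 8 in 29 of 32 DiD+ and 27 of 28 DiD- cells, and it exceeded Adam10 in 30 and 27 cells. The next neighbours were closer. Adam10 was above Adam17 in 23 DiD+ cells and below it in 7, but in DiD- cells above in 12 and below in 15, so the order of the sheddases did not stand apart from the spread among DiD- cells. Ece1 was above Mme in 17 DiD+ cells and below it in 12, although the summed level of Mme was the higher one there.

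**Figure D5:**
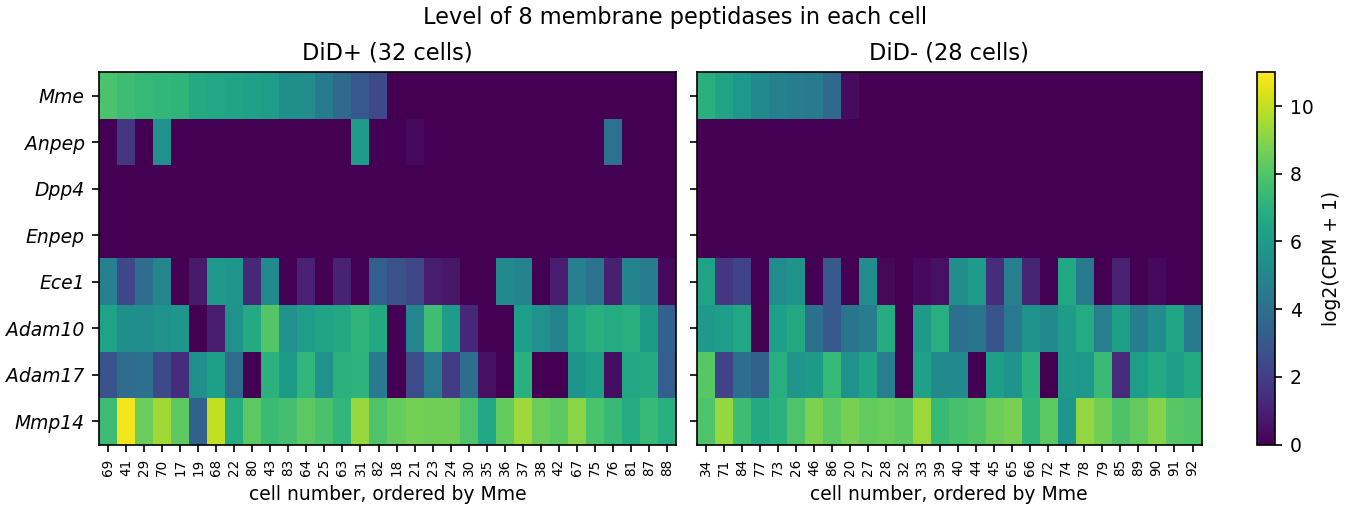
The log2 of CPM + 1 of the 8 genes (rows) in each cell (columns, with the cell number), for DiD+ cells on the left and DiD- cells on the right, each ordered by Mme. Mme ends abruptly after 16 DiD+ and 9 DiD- cells, Mmp14 is present throughout, and the cells without Mme still hold Adam10, Adam17 and Mmp14 in most columns.

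A DiD+ cell held a median of 4 members with at least 10 counts and a DiD- cell a median of 3, and 2 DiD+ cells held 6. Mme and Ece1 were both present at 10 counts in 8 of 32 DiD+ cells, where each was present in 16, and in 6 of 28 DiD- cells, where Mme was present in 8 and Ece1 in 12. The rho of Mme with Ece1, Adam10, Adam17 and Mmp14 over all 60 cells lay between -0.03 and 0.18. Adam10 and Adam17 had a rho of 0.45 across DiD+ cells and -0.02 across DiD- cells. Values of a cell share its library and depth, and weak values in sparse counts are no finding.

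The 10 genes whose level over the 60 cells ran most like Mme were Ccn1 (rho 0.59), Col16a1 (0.56), Iigp1 (0.56), Ggnbp2 (0.55), Kctd1 (0.55), Gab3 (0.54), App (0.54), Aldh1a7 (0.52), Ephx1 (0.52) and Nr4a1 (0.52). Likeness was the Spearman rho of log2(CPM + 1) among 10387 other genes with at least 10 counts in at least 10 cells, of which the middle 95% had a rho from -0.33 to 0.32 and the lowest -0.58. Ccn1 encodes a matricellular protein, Col16a1 a collagen chain, Iigp1 an interferon-inducible GTPase and Nr4a1 an immediate early nuclear receptor. Ccn1 had rho values of 0.58 in DiD+ cells alone and 0.57 in DiD- cells alone, of like size within each group. The list itself was less steady, because 5 of the 10 genes were shared with the top 10 by Pearson r, 2 with the top 10 in DiD+ cells and 0 with that in DiD- cells. For the other members the 3 most alike were Smurf2, Amot and Usp21 for Ece1 (rho 0.50, 0.50 and 0.46), Fam107b, Sec23a and Naa60 for Adam10 (0.55, 0.53 and 0.52), Ahi1, Kntc1 and Dlx1 for Adam17 (0.51, 0.50 and 0.47) and Yipf6, Pdia4 and Impdh1 for Mmp14 (0.51, 0.50 and 0.50).

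Among 35 other membrane peptidases, 14 had no count in any cell and 18 reached 1 CPM, of which 4 were called higher and 1 lower in DiD+ cells, against 12.1% and 4.86% of all genes (median log2 ratio -0.19). Only Phex and Adam12 had both a call and 10 CPM in a group. Phex, a neprilysin relative of bone mineral control, was at 10.01 against 3.93 CPM (log2 ratio 1.16), but at 0.52 without DiD+ cell 19, which held macrophage and erythroid markers, and at 0.25 without all wells with host markers. Adam12, a metalloprotease-disintegrin, was at 6.48 against 26.6 CPM (-1.88), was detected in 4 DiD+ against 15 DiD- cells, and stood at -3.21 without DiD+ cell 88 and -3.06 without the wells with host markers. The other calls, named after their values were seen, were Fap (3.17 against 0 CPM, in 2 cells), Adam33 (1.57 against 0.0921 CPM) and Ggt5 (1.13 against 0 CPM, in 2 cells). Cell 41 held 63.7% of the Fap counts, and Fap stayed called without it (log2 ratio 1.13). Adam33 lost its call without DiD+ cell 21 (log2 ratio 0.79) and Ggt5 without DiD+ cell 37 (0.25). Without the 10 wells with host markers the calls were 1 higher and 1 lower of 16, where 10.5% and 5.79% of all genes were called. The angiotensin-converting enzyme Ace, which shares substrates with Mme, was at 100.1 and 136 CPM, detected in 14 DiD+ against 26 DiD- cells, a log2 ratio of -0.44. This was -0.80 without the wells with host markers, -1.16 without DiD+ cell 67, which held 41.9% of the DiD+ counts, and -0.01 without DiD- cell 34.

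A further list held inhibitors, activators and partners of the members. Of 23 genes on this list, 18 reached 1 CPM, with 1 called higher, 1 lower (12.1% and 4.86% of all genes) and a median log2 ratio of -0.00. The metalloproteinase inhibitors Timp1 and Timp2 had counts in every cell, at 384 against 280.0 CPM and at 1206 against 1363 CPM, and Timp3, which inhibits Adam17, was at 23.4 and 24.3 CPM. Furin, the convertase that activates Mmp14 and the sheddases, was at 16.4 and 16.99 CPM. Of the iRhom proteins that carry Adam17 to the surface, Rhbdf1 was at 125 and 120 CPM and Rhbdf2 at 26.9 and 11.99 CPM. Rhbdf2 was called (log2 ratio 1.10) and detected in 18 DiD+ against 6 DiD- cells, but stood at 0.91 without DiD+ cell 29 and at 0.72 without the wells with host markers. Reck, a membrane inhibitor of Mmp14, was at 4.51 and 14.2 CPM (-1.46), but cell 71 held 63.6% of its DiD- counts and the value was -0.21 without it and -2.49 without DiD+ cell 82. The tetraspanins that accompany Adam10, Tspan5, Tspan14, Tspan15 and Tspan17, had log2 ratios from -0.32 to 0.65, and none was called.

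Of 31 proteins shed from the surface by these enzymes, 27 reached 1 CPM, and 8 were called higher and 1 lower in DiD+ cells, against 12.1% and 4.86% of all genes (median 0.13). Notch1, an Adam10 substrate, was at 25.1 CPM in DiD+ cells (18 with a count) against 4.95 CPM in DiD- cells (6 with a count), or 2.13 on the log2 scale, which was 2.04 without the wells with host markers. Its ligand Jag1 was at 7.93 and 29.8 CPM (-1.78). The interleukin-6 receptor Il6ra was at 12.2 and 4.28 CPM (1.32) and the EGF receptor ligand Ereg at 24.4 and 11.5 CPM (1.03), which was 0.69 without DiD+ cell 43. The adhesion molecules Icam1 (11.97 CPM against 0 counts) and Vcam1 (352 against 147 CPM, 1.26) were also called, but had log2 ratios of 0.07 and -0.14 without the wells with host markers. The remaining calls were of genes under 10 CPM, and without those wells the list had 5 higher and 2 lower of 25, where 10.5% and 5.79% of all genes were called.

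Of 36 peptide substrates and receptors of the exopeptidases and of Mme, 17 had no count in any cell, among them the receptors Ednra, Tacr1, Npr1 and Agtr1a. Of the 13 with at least 1 CPM, 7 were called higher and 1 lower (median 1.10), against 12.1% and 4.86% of all genes. Without the wells with host markers the calls were 8 and 2 of 14, against 10.5% and 5.79%. The DiD+ counts of Agt, Ccl5 and Cxcl10, the called genes with at least 10 CPM, lay mostly in few cells. Agt, the precursor of angiotensin, was at 25.9 CPM and had 2 counts in DiD- cells, with 60.7% of its DiD+ counts in cell 76, one of the Anpep cells. Ccl5 was at 65.4 CPM in 5 DiD+ cells, with 86.8% of the counts in cell 22, and had 0 counts in DiD- cells. Cxcl10 was at 73.2 and 14.8 CPM (log2 ratio 2.23), but at 0.72 without DiD+ cell 68. Agt and Ccl5 stayed called without their top cells, at 3.485 without cell 76 and 3.325 without cell 22. Ccl5 and Cxcl10 are chemokines that Dpp4 clips. Of 12 secreted matrix metalloproteinases, 6 reached 1 CPM, and 2 of these, named after their values were seen, were called higher, against 12.1% of all genes. Mmp2, which Mmp14 activates, was at 6.37 and 1.47 CPM (1.58), but cell 41 held 88.6% of its DiD+ counts, and the direction turned without it (-0.50). Mmp9 was at 7.96 and 1.85 CPM (1.65), and at 0.70 without DiD+ cell 42 and 3.16 without DiD- cell 74. Genes of these lists without a DiD- count have ratios that depend on the added 1 CPM, and each of them lay above its list's median.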

How the data were processed

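Single PyMT-Bo1 cells sorted as DiD+ (32) or DiD- (28) were grouped by the DiD intensity in their labels. Per the labels and methods, the authors trimmed adapters, aligned reads with STAR to GRCm38/mm10 with ERCC spike-ins and transgenes added, and estimated counts with RSEM. The authors deposited these expected counts, not normalized, for 47729 mouse genes (96.6% of values whole), and a BASiCS-normalized signal table of 13951 mouse genes that held 6 of the 8 members and was used only as an alternative scaling.

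Expected counts were rounded to whole numbers. Counts on mouse genes were summed per group and scaled to CPM, and the log2 ratio was taken with 1 CPM added. Genes on 5 related lists were named if they reached 10 CPM in a group and a fold of 2, at most 8 per list. Other list genes (Ece2, Ace, Fap, Adam33, Ggt5, the Timp, Rhbdf1, Furin and Tspan genes, Cxcl12, Calcrl, Ramp2, Cxcr4, Cxcl9, Nppb, Mmp2, Mmp9 and genes without a count) were named after their values were seen. Beside the members, the 10 genes most like Mme and the 3 most like each other member were named, over genes with at least 10 counts in at least 10 cells. A well with at least 50% of a host marker list at 10 counts was treated as holding that RNA. Wells that may hold more than 1 cell were kept, and values without them are given. The members and lists were chosen with earlier results of these data known. The study's own test with BASiCS was not run, because it takes cells of pooled mice as replicates.

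Alternatives were the mean of cells' CPM, the BASiCS values, spike-in scaling, edgeR 4.0.16 TMM and DESeq2 1.42.0 size factors (scaling only), other pseudocounts and minimums, thinning to 2200000 counts, and leaving out wells or single cells. Totals per cell ranged from 2276789 to 7794219, and where a group had no count, 3 counts were taken as its floor. Python 3.11.15 (numpy 2.4.6, pandas 2.3.3, scipy 1.17.1, matplotlib 3.10.9) and R 4.3.3 were used, and the steps were tested on simulated data.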

Additional observations from a re-analysis of the deposited data

How the results depend on the processing

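Each group is 1 sample of cells from pooled mice, so no alternative measures variation between mice, and genes near 0.0251 CPM cannot be compared at this depth. The log2 ratio of Mme, 1.64, was 1.07 with spike-in scaling, which moved the median of all genes to -0.34, 1.21 with a pseudocount of 10 CPM, 1.93 without wells with macrophage markers, 1.78 without all wells with host markers, and 1.45 to 2.20 with 1 cell left out. It moved by less than its counting interval under the other 7 alternatives. The members' median log2 ratio, 0.28, was 0.35 by the mean of the cells' CPM, -0.15 with spike-ins, 0.40 without macrophage wells, 0.37 without host wells, 0.18 in cells 17 to 46 and 0.62 in cells 63 to 92 (chosen after seeing the data), and 0.18 to 0.33 with 1 cell left out. The number of members called was 2, and 1 with a pseudocount of 10 CPM, 3 in cells 17 to 46, where Adam17 was called lower, and 2 with any 1 cell left out. Spike-in scaling gave log2 ratios of 0.10 for Adam10, -0.77 for Adam17, -0.61 for Ece1 and 2.12 for Anpep, and turned the sign of Mmp14 to -0.40. A pseudocount of 0.1 CPM gave 4.84 for Anpep. The share of all genes called higher was 12.1%, and 6.38% at a minimum of 10 CPM and 7.99% without one, and that called lower 4.86%, 3.18% and 3.21%. Of the 16 shares of cells, thinning moved none beyond its interval, and a minimum of 10 counts moved the 2 of Ece1, to 50% of DiD+ and 42.9% of DiD- cells. The causes of these shifts were not tested. No paired analysis was possible because the labels give the cells no number shared between the groups.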
